A study of Mus musculus with 16 samples.

Results

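Heparan sulfate is a sugar chain that cells attach to proteins of their surface and of the surrounding matrix. The chain is laid down as an alternating polymer, then altered by enzymes of the Golgi that move sulfate onto it and turn part of its glucuronic acid into iduronic acid, and it is finally trimmed of some sulfates outside the cell. The pattern of sulfates decides which growth factors, among them fibroblast growth factors and ligands of the TGF-beta family, the chain can hold and present to their receptors. In the heart, fibroblasts make much of the matrix that carries these chains.

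Described here are 10 mouse genes of this pathway, named by a fixed list of symbols, out of 55414 gene identifiers counted, of which 15285 had enough reads to be tested. They are the chain polymerases Ext1 and Ext2, the starter Extl3, the N-sulfating enzyme Ndst1, the epimerase Glce, the O-sulfating enzymes Hs2st1, Hs6st1 and Hs6st2, and the extracellular sulfatases Sulf1 and Sulf2. All 10 were among the tested genes, and their lowest count in any library was 624 reads, for Hs6st1.

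The cells were fibroblasts cultured from mouse hearts and used at passage 2. They came from mice with a floxed Has2 gene, per the treatment protocol, although the genotype label calls all of them wild type C57BL/6J. Has2 makes hyaluronan, another matrix sugar that carries no sulfate. There were 4 groups of 4 RNA-seq libraries: Cre adenovirus with TGF-beta, GFP adenovirus with TGF-beta, Cre adenovirus without TGF-beta and GFP adenovirus without TGF-beta. All 4 groups had an adenovirus and a serum starvation of 24 h. Virus was left for 5 h and the cells were collected after 48 h of stimulation. The protocol gives 20 ng/mL for bFGF and TGF-beta in a wording that does not say whether the groups without TGF-beta had bFGF. Replicate numbers 1 to 4 mark 4 cell preparations, each present once in every group, with preparations 1 and 4 labelled male and 2 and 3 female. Whether a preparation is 1 animal is not stated, so the p-values reach no further than these 4 preparations. A fit without the preparation as a term (a block) treats the 16 libraries as independent and ignores this pairing. The ages of the mice were not given in the labels.

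Library totals ran from 17.9 to 48.7 M counts, with means of 27.5 ± 3.72 M in Cre cells with TGF-beta, 26 ± 10.5 M in GFP cells with TGF-beta, 36 ± 11.1 M in Cre cells and 23.5 ± 4.58 M in GFP cells (SD, n = 4 each, with M for 1000000). Preparation 4 stood apart in all 4 groups along the second principal component, which held 20.3% of the variance, and its 10 top genes held 6.88 to 7.34% of all counts, against 10.3 to 12.1% in the other preparations. The sum of 10 fibroblast markers was 17827 to 52285 CPM in Cre cells with TGF-beta, 23409.5 to 61734 CPM in GFP cells with TGF-beta, 23973 to 57059.8 CPM in Cre cells and 26749 to 61144 CPM in GFP cells, where CPM are counts per M counts of a library, its size scaled by TMM. The sum of 8 cardiomyocyte markers was 3.15 to 12.3 CPM in Cre cells with TGF-beta, 3.12 to 6.4 CPM in GFP cells with TGF-beta, 8.01 to 23.4 CPM in Cre cells and 5.22 to 16.7 CPM in GFP cells, and of the 8 Actc1 and Nppa were at 0 in all 16 libraries. Has2 had 12.5, 11, 25 and 17.4 CPM in Cre cells with TGF-beta (preparations 1 to 4), 15.3, 9.47, 21.9 and 20.7 CPM in GFP cells with TGF-beta, 14.9, 13.5, 16.6 and 13.9 CPM in Cre cells and 18, 15.3, 23.2 and 18.4 CPM in GFP cells. The labels name exon 2 as the part removed. These counts cover the whole gene, so they include exons outside it and do not check the deletion. Has2 differed between Cre and GFP cells by -0.03 ± 0.26 with TGF-beta and -0.35 ± 0.26 without (log2 fold change ± SE), and neither difference passed the test. With the preparation as a block the differences were -0.04 ± 0.15 and -0.32 ± 0.15, and again neither passed. Has2 was lower in Cre cells in 2 of 4 preparations with TGF-beta and in 4 of 4 without.

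Upstream sequence is shown for the genes whose levels moved with TGF-beta, as far as RefSeq promoter windows were at hand. Windows existed for 6 of the 10 genes (Ext2, Hs2st1, Hs6st1, Hs6st2, Glce and Sulf2). The 250 bases before the start site are given for Glce and Hs2st1, which rose, and for Sulf2, which fell (RefSeq, build GRCm38.p6, each gene on the minus strand and printed 5′ to 3′ in its own direction). They lie at chr9:62122610-62122859 for Glce, chr3:144570217-144570466 for Hs2st1 and chr2:166155286-166155535 for Sulf2. Capitals mark each GC box, GGGCGG or its reverse complement.
Glce: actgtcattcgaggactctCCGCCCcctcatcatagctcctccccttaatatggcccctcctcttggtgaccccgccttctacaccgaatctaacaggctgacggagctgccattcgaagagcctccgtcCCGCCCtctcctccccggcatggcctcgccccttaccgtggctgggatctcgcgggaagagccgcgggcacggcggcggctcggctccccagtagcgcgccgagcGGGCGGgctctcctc
Hs2st1: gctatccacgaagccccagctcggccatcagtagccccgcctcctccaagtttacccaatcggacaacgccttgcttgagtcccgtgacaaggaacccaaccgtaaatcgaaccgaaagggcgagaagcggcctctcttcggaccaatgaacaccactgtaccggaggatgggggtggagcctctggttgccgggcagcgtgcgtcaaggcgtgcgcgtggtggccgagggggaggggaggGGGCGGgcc
Sulf2: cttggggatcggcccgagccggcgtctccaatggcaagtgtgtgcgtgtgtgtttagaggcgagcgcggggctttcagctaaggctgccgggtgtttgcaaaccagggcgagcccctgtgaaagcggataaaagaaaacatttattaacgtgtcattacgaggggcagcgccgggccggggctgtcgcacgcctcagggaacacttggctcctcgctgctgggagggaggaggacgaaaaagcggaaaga
Glce held 3 GC boxes, at 231, 120 and 15 bases before the start, and Hs2st1 held 1, at 9 bases before it. The bases just after each start were sought near the beginning of annotated transcripts of the same gene. They were found for Glce and for the Sulf2 window shown, which was chosen for this. For Hs2st1 they were not found, so its distance is from the RefSeq start only. The Sulf2 window shown held none, and the window of its other RefSeq start held 1 GC box and 1 CAGAC, the core letters bound by SMAD proteins. Hs6st1, which TGF-beta did not move past the test, held 6 GC boxes, while Ext2 and the 2 windows of Hs6st2 held none. CAGAC was in no other window of these genes, and the AP-1 motif TGACTCA was in none of them. Among 32851 mouse promoter windows of the same length, searched on both strands, 32.7% held the GC box, 42.2% held CAGAC and 4.46% held TGACTCA. No match listed here overlaps another. These are matches of letters in 250 bases and nothing more.

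The 10 genes spanned a wide range of levels in GFP cells without TGF-beta. Per kilobase of exon, Sulf1 was the highest at 116 ± 17.8 CPM per kb, with Sulf2 next at 47.8 ± 6.00 CPM per kb (SD, n = 4). Extl3 followed at 37.1 ± 5.08, Ext1 at 30.2 ± 1.26, Ext2 at 29.9 ± 3.39 and Ndst1 at 25.7 ± 4.65 CPM per kb. Lower still were Hs6st2 at 12.1 ± 2.50, Hs2st1 at 8.55 ± 1.01, Hs6st1 at 6.17 ± 0.579 and Glce at 5.6 ± 0.852 CPM per kb. Divided by the longest transcript in place of all exonic bases, Ext2 stood at 58.9 CPM per kb, above Extl3 at 37.4 CPM per kb. Between neighbours in the first order, the 4 libraries separated only for Sulf1 from Sulf2, Ndst1 from Hs6st2 and Hs2st1 from Hs6st1. On this per-length scale, all 4 genes that start, extend and N-sulfate the chain stood above the 4 that epimerize and O-sulfate it.

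The values per library of all 10 genes are drawn in the plot of levels by group.

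**Figure D1:**
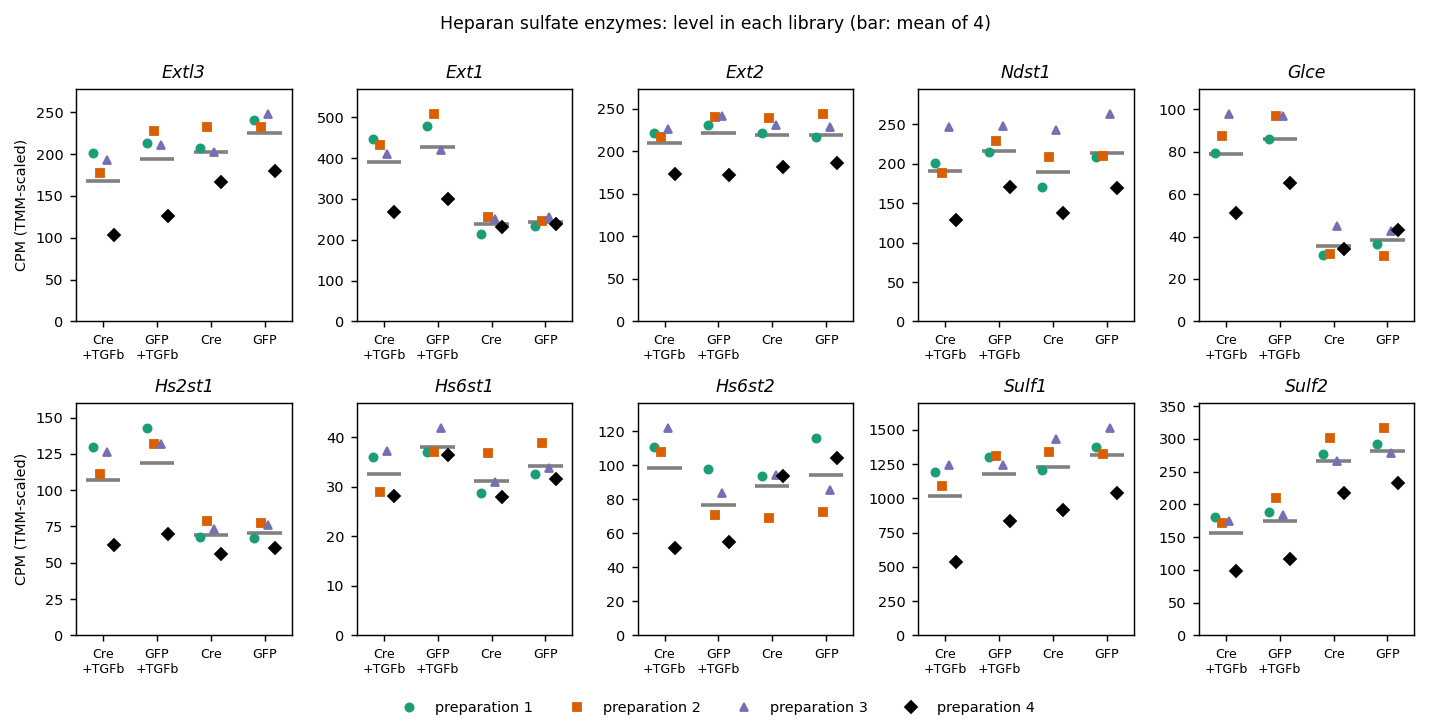
Level of each of the 10 heparan sulfate genes in every library, in TMM-scaled CPM on axes that start at 0, by group; points are the 4 preparations and bars the group means. Glce, Ext1 and Hs2st1 are higher and Sulf2 is lower in both groups with TGF-beta, and preparation 4 is often the lowest point.

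Without the preparation as a block, TGF-beta changed the same 4 of the 10 genes in Cre cells and in GFP cells. The epimerase Glce, the polymerase Ext1 and the 2-O-sulfating enzyme Hs2st1 rose, and the sulfatase Sulf2 fell. At an adjusted p below 0.05 (edgeR quasi-likelihood test, Benjamini-Hochberg over all 15285 genes), 30.3% of all tested genes were called in Cre cells, 14% higher and 16.3% lower, against 4 of 10, 3 of 10 and 1 of 10 here. In GFP cells 29.1% of all genes were called, 13.8% higher and 15.3% lower, against the same numbers of the 10. The Cre and GFP libraries come from the same 4 preparations. With the preparation as a block, 52.5% of all genes were called in Cre cells (8030 against 4629 genes) and 49.1% in GFP cells (7498 against 4445), and the 4 genes kept their calls in both. Extl3 and Sulf1 were then called lower as well in Cre cells, which made 6 of 10 there and 4 of 10 in GFP cells.

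Among the chain-building enzymes, Ext1, which with Ext2 forms the complex that adds the alternating sugars, was the one called. Ext1 had 447, 433, 409 and 269 CPM in Cre cells with TGF-beta (preparations 1 to 4), 478, 508, 421 and 299 CPM in GFP cells with TGF-beta, 213, 256, 251 and 232 CPM in Cre cells and 233, 245, 257 and 239.5 CPM in GFP cells. Every library with TGF-beta was above every library without it, and preparation 4 was the lowest of the treated libraries. Ranges separated upward for 12.5% of all genes in Cre cells and 15.1% in GFP cells, and downward for 15.8% and 14.7%, against 2 of the 10 upward and 1 downward in each. The rise was 0.71 ± 0.17 in Cre cells (log2 fold change ± SE, 95% interval 0.36 to 1.06, adjusted p = 0.00434) and 0.81 ± 0.17 in GFP cells (0.46 to 1.16, adjusted p = 0.00189). It was seen in 4 of 4 preparations of each, at 1.07, 0.76, 0.71 and 0.21 by preparation in Cre cells and 1.04, 1.05, 0.71 and 0.32 in GFP cells. Without preparation 1 in all groups and without the block, the rise in Cre cells was 0.59 and lost its call (adjusted p = 0.0798). With the block and all preparations the rises were 0.69 in Cre cells (adjusted p = 0.000321) and 0.78 in GFP cells (adjusted p = 0.000114).

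Ext2, its partner, stayed within its spread. Its means were 209.5 ± 24.9 CPM in Cre cells with TGF-beta, 222 ± 33.3 CPM in GFP cells with TGF-beta, 219 ± 25.4 CPM in Cre cells and 219 ± 24.8 CPM in GFP cells (SD, n = 4 each). The log2 fold change with TGF-beta was -0.06 (95% interval -0.34 to 0.22) in Cre cells and 0.02 (-0.27 to 0.30) in GFP cells. The ratio of the partners moved with Ext1. Per kilobase of exon, Ext1 over Ext2 was 1.66 in Cre cells with TGF-beta and 1.73 in GFP cells with TGF-beta, against 0.990 in Cre cells and 1.01 in GFP cells (geometric means of 4). On the log2 scale these ratios were 0.73 ± 0.17, 0.79 ± 0.15, -0.01 ± 0.17 and 0.02 ± 0.15 in the same order of groups, and the libraries with and without TGF-beta did not overlap. The size of the ratio depends on the length used: divided by the longest transcript instead, it was 0.890 and 0.925 with TGF-beta in Cre and GFP cells, against 0.530 and 0.542 without.

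Extl3, which adds the first sugar that commits a linker to heparan sulfate, had 103 to 201 CPM in Cre cells with TGF-beta, 126 to 228 CPM in GFP cells with TGF-beta, 167 to 232 CPM in Cre cells and 179.9 to 248 CPM in GFP cells. Its difference with TGF-beta was -0.26 ± 0.21 in Cre cells (adjusted p = 0.356) and -0.21 ± 0.21 in GFP cells (adjusted p = 0.484). The difference was below 0 in 4 of 4 preparations of each. With the preparation as a block it passed the test in Cre cells (-0.30, adjusted p = 0.0175) and not in GFP cells (-0.24, adjusted p = 0.0537). Leaving out preparation 2 or 4 ended the blocked call in Cre cells (adjusted p = 0.0676 without preparation 4). Leaving out preparation 1 or 3 kept it (adjusted p = 0.0153 and 0.0315).

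Of the enzymes that modify the chain, Glce had the largest change of the 10 genes. This epimerase turns glucuronic acid into iduronic acid, which makes the chain more flexible. Glce had 79.3, 87.2, 97.7 and 51.3 CPM in Cre cells with TGF-beta, 85.7, 96.6, 96.6 and 65.2 CPM in GFP cells with TGF-beta, 31.5, 32, 45.0 and 34.1 CPM in Cre cells and 36.6, 30.7, 42.5 and 43.1 CPM in GFP cells. The libraries with and without TGF-beta did not overlap, and preparation 4 rose least. The rise was 1.15 ± 0.19 in Cre cells (95% interval 0.74 to 1.56, adjusted p = 0.000399) and 1.17 ± 0.19 in GFP cells (0.76 to 1.58, adjusted p = 0.000349), a fold of 2.22 and 2.25. By preparation it ran from 0.59 to 1.45 in Cre cells and from 0.60 to 1.65 in GFP cells, with preparation 4 the lowest and preparation 2 the highest in each.

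Hs2st1 adds sulfate to the iduronic acid that Glce makes, and the 2 proteins are known to bind each other. It had 129.6, 111, 126 and 62.2 CPM in Cre cells with TGF-beta, 143, 132, 132 and 69.7 CPM in GFP cells with TGF-beta, 67.5, 78.9, 73.5 and 56.0 CPM in Cre cells and 67.3, 77.5, 76.2 and 59.9 CPM in GFP cells. Preparations 1 to 3 with TGF-beta lay above all libraries without it, while preparation 4 with TGF-beta lay among them, so the groups overlapped. The rise was 0.64 ± 0.23 in Cre cells (95% interval 0.14 to 1.13, adjusted p = 0.0488) and 0.76 ± 0.23 in GFP cells (0.27 to 1.25, adjusted p = 0.0218), above 0 in 4 of 4 preparations of each. In this fit, without the block, both calls were close to the threshold. The call in Cre cells was lost on leaving out any of 12 of the 16 libraries (adjusted p from 0.0529 to 0.126), and that in GFP cells on leaving out any of 4 (0.0513 to 0.0567). With the preparation as a block the rises were 0.59 in Cre cells (adjusted p = 0.00109) and 0.72 in GFP cells (adjusted p = 0.000262). Both calls held in every blocked fit that left out a whole preparation.

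The other sulfating enzymes of the Golgi were not called. Ndst1, which swaps acetyl groups of the chain for sulfate and so prepares it for the later enzymes, had 128 to 246 CPM in Cre cells with TGF-beta, 171 to 248 CPM in GFP cells with TGF-beta, 138 to 243 CPM in Cre cells and 169 to 263 CPM in GFP cells. Its log2 fold change with TGF-beta was 0.01 (95% interval -0.43 to 0.44) in Cre cells and 0.02 (-0.42 to 0.46) in GFP cells. Hs6st1, 1 of the enzymes that add sulfate to the glucosamine of the chain, had 28.1 to 37.3 CPM in Cre cells with TGF-beta, 36.4 to 41.9 CPM in GFP cells with TGF-beta, 28.0 to 36.8 CPM in Cre cells and 31.6 to 38.8 CPM in GFP cells. Its change was 0.07 (-0.19 to 0.32) in Cre cells and 0.16 (-0.10 to 0.41) in GFP cells.

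Hs6st2, which does the same reaction as Hs6st1, varied with the preparation. It had 111, 108, 122 and 51.3 CPM in Cre cells with TGF-beta, 97.6, 70.5, 83.9 and 55 CPM in GFP cells with TGF-beta, 93.4, 68.9, 94.1 and 93.9 CPM in Cre cells and 116, 72.4, 85.4 and 104 CPM in GFP cells. Preparation 4 was lowest of its group in both groups with TGF-beta and among the higher ones without. TGF-beta against none gave 0.25, 0.65, 0.38 and -0.87 by preparation in Cre cells and -0.25, -0.04, -0.03 and -0.92 in GFP cells. The fitted change was 0.17 ± 0.24 in Cre cells (adjusted p = 0.626) and -0.30 ± 0.24 in GFP cells (adjusted p = 0.381). Without preparation 4 and with the block, the change in Cre cells was 0.44 (adjusted p = 0.00209). Without preparation 4 and without the block it was 0.42 and not called (adjusted p = 0.0753). Without preparation 2 and with the block it was -0.048 (adjusted p = 0.896). Only 1 of the 31 alternatives called it.

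**Figure D2:**
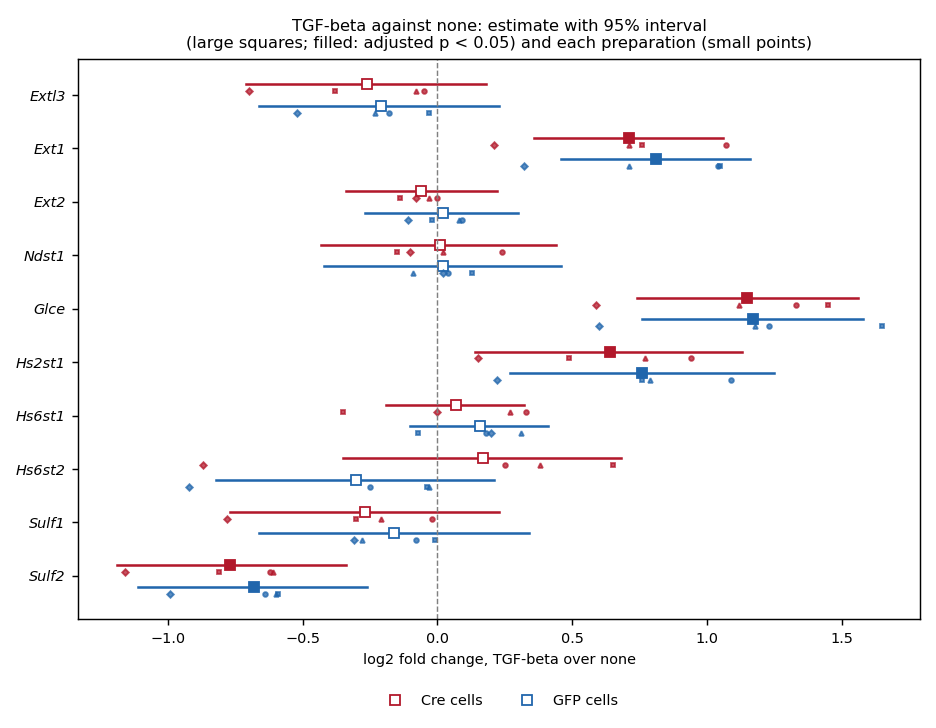
Log2 fold change with TGF-beta over none for the 10 genes, in Cre cells and in GFP cells. The 95% intervals come from the edgeR fit without the block, and small points are the 4 preparations. The intervals of Glce, Ext1 and Hs2st1 lie above 0 and that of Sulf2 below 0 in both, and the Hs6st2 points of preparation 4 lie far below the others.

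The 2 extracellular sulfatases remove sulfate from the glucosamine of finished chains and so undo the work of the Hs6st enzymes. Sulf2 was called with TGF-beta and Sulf1 was not, and the difference between the 2 was not tested. Sulf2 had 180, 172, 175 and 98 CPM in Cre cells with TGF-beta, 188, 210.1, 184 and 117 CPM in GFP cells with TGF-beta, 277, 302, 267 and 218 CPM in Cre cells and 293, 317, 279 and 233 CPM in GFP cells. Every library with TGF-beta was below every library without it. Its log2 fold change was -0.77 ± 0.20 in Cre cells (95% interval -1.19 to -0.34, adjusted p = 0.00904) and -0.68 ± 0.20 in GFP cells (-1.11 to -0.26, adjusted p = 0.0176), present in 4 of 4 preparations of each. Unlike for the 3 genes that rose, preparation 4 showed the largest change, -1.16 in Cre cells and -0.99 in GFP cells, where the others lay between -0.59 and -0.81. In the fit without the block, leaving out preparation 1, 2 or 3 in all groups ended the call (adjusted p up to 0.0626 in Cre cells and 0.121 in GFP cells). With the block the log2 fold change was -0.79 in Cre cells (adjusted p = 3.33e-06) and -0.71 in GFP cells (adjusted p = 1.15e-05). These calls held in every blocked fit that left out a whole preparation.

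Sulf1 had 1195, 1092, 1242 and 535 CPM in Cre cells with TGF-beta, 1305, 1311, 1247 and 836 CPM in GFP cells with TGF-beta, 1211, 1340.5, 1435 and 918 CPM in Cre cells and 1379, 1323, 1516 and 1038 CPM in GFP cells. The groups overlapped, and preparation 4 was the lowest library in each of them. Its change was -0.27 ± 0.23 in Cre cells (95% interval -0.77 to 0.23, adjusted p = 0.398) and -0.16 ± 0.23 in GFP cells (-0.66 to 0.34, adjusted p = 0.650). With the block it passed in Cre cells (-0.31, adjusted p = 0.0232). Leaving out preparation 2, 3 or 4 ended that call (adjusted p = 0.0611 without preparation 4), and leaving out preparation 1 kept it (adjusted p = 0.0155). Per kilobase of exon, Sulf1 over Sulf2 was 3.30 in Cre cells with TGF-beta and 3.52 in GFP cells with TGF-beta, against 2.38 in Cre cells and 2.43 in GFP cells. In log2 units the means were 1.72 ± 0.16, 1.81 ± 0.08, 1.25 ± 0.16 and 1.28 ± 0.16 in the same order, with no overlap. The gap was narrow in Cre cells, where the lowest library with TGF-beta was at 1.5 and the highest without it at 1.48.

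**Figure D3:**
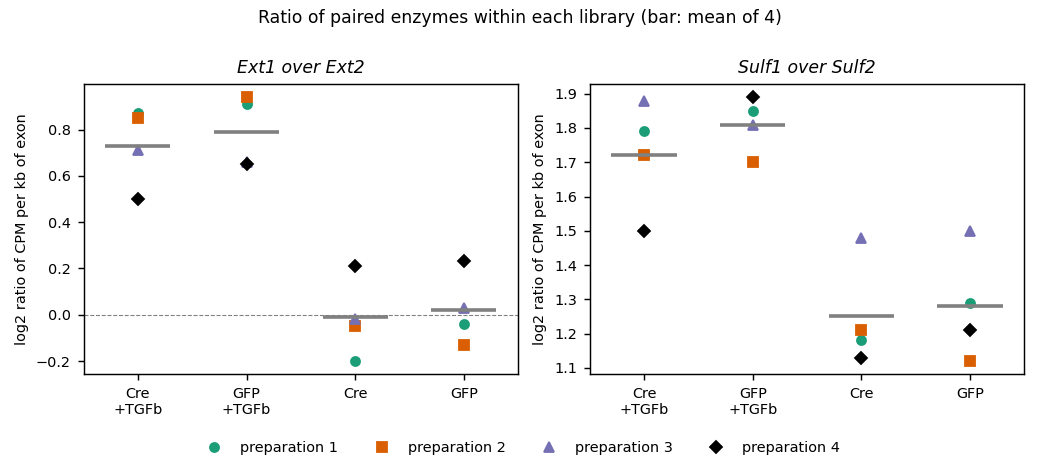
Log2 ratios between related enzymes per kilobase of exon in each library, by group, with group means. Ext1 over Ext2 is higher in both groups with TGF-beta, without overlap, and Sulf1 over Sulf2 is higher on average (1.72 and 1.81 against 1.25 and 1.28).

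Cultured heart fibroblasts can carry other cells, and in these bulk libraries fewer cells of a type and less RNA per cell cannot be told apart. Several marker lists moved with TGF-beta. Without the block 14% of all genes rose and 16.3% fell in Cre cells, and 13.8% rose and 15.3% fell in GFP cells. With the block 52.5% of all genes were called in Cre cells and 49.1% in GFP cells, in either direction. Blocked shares by direction were not taken. Of 10 fibroblast markers 7 fell and none rose in each of Cre and GFP cells, among them Pdgfra and Tcf21, which mark resting cardiac fibroblasts. With the block 7 fell in each, and 1 rose in Cre cells and 2 in GFP cells. Of 10 macrophage markers 3 fell in each of Cre and GFP cells, or 9 in Cre cells and 10 in GFP cells with the block, and their summed level was 415 to 1028 CPM in Cre cells with TGF-beta, 438 to 942 CPM in GFP cells with TGF-beta, 619.6 to 1641 CPM in Cre cells and 726 to 1533 CPM in GFP cells. Of 8 endothelial markers 3 fell in each, or 5 in each with the block, with sums of 504 to 839, 547 to 866, 592 to 830.3 and 605 to 854 CPM in the same order of groups. Of 7 pericyte and smooth muscle markers 1 rose and 2 fell in each, with sums of 72.8 to 124, 92.0 to 140.5, 46.1 to 76.6 and 48.0 to 83.7 CPM. With the block 2 rose and 4 fell in Cre cells, and 2 rose and 3 fell in GFP cells. Of the 8 cardiomyocyte markers 3 had enough reads, of which 1 fell in Cre cells and 2 in GFP cells, or 2 and 3 with the block. Of 8 mesothelial markers 6 had enough reads. Of these 1 rose and 2 fell in Cre cells and 1 fell in GFP cells, or with the block 2 rose and 2 fell in Cre cells and 1 rose and 2 fell in GFP cells. Their sums were 4.15 to 8.22, 3.07 to 4.57, 4.34 to 8.93 and 3.27 to 5.8 CPM in the same order of groups. The part of these changes in the results on the 10 genes was not tested.

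Around the 10 enzymes, the rest of the pathway was read from 4 further lists. Of 20 enzymes that build the linker, start the chain or add rarer sulfates, 14 had enough reads. TGF-beta raised 2, lowered 3 and left 9 uncalled in Cre cells and again in GFP cells. Of all genes 14% rose and 16.3% fell in Cre cells, and 13.8% rose and 15.3% fell in GFP cells. With the block 2 of the 14 rose and 5 fell in Cre cells, beside 52.5% of all genes called in either direction. In GFP cells 3 rose and 3 fell with it, beside 49.1%. Without the block, Hs3st1 stood at -2.96 and B4galt7 at 0.52 in Cre cells (log2 fold change, adjusted p = 5.48e-06 and 0.000897). In GFP cells Hs3st1, which adds the 3-O-sulfate known from the antithrombin-binding site, had a log2 fold change of -2.86 ± 0.31 (adjusted p = 8.1e-06). It had 4.91, 4.14, 5.97 and 2.05 CPM in GFP cells with TGF-beta, against 32, 30.1, 36.6 and 23.6 CPM in GFP cells. No library of one group came near the other. Ndst3, a relative of Ndst1, fell by 2.06 (SE 0.30, adjusted p = 0.000122), to a mean of 0.912 ± 0.220 CPM in GFP cells with TGF-beta, against 3.82 ± 0.966 CPM in GFP cells (SD, n = 4). B4galt7, which adds a galactose of the linker, rose by 0.53 ± 0.10 (adjusted p = 0.000774), with 47.8 ± 2.66 CPM in GFP cells with TGF-beta and 33.1 ± 1.59 CPM in GFP cells. Extl1 rose by 2.97 ± 0.79 (adjusted p = 0.0101) from very few reads, 0 to 7 per library in GFP cells.

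Genes that supply sulfate and sugar donors went both ways. Of 15 in this list 14 were tested. In Cre cells 3 rose and 1 fell, beside 30.3% of all genes called, with Slc26a2 at 0.64 (adjusted p = 0.0027) and Slc35d1 at 0.44 (adjusted p = 0.0155). In GFP cells 2 rose and none fell, beside 29.1% of all genes called. They were Slc35d1, a carrier of nucleotide sugars into the endoplasmic reticulum, by 0.47 (adjusted p = 0.0107), and the sulfate transporter Slc26a2, by 0.46 (adjusted p = 0.0215). With the block 6 rose and 4 fell in Cre cells, beside 52.5% of all genes called, and 5 rose and 2 fell in GFP cells, beside 49.1%.

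Enzymes that break the chain down pointed one way. Of 9 tested, 7 fell in Cre cells and 6 in GFP cells and none rose, beside 16.3% and 15.3% of all genes called lower. With the block 8 fell in each, beside 52.5% and 49.1% of all genes called in either direction. Without the block the median log2 fold change was -0.62 in Cre cells and -0.55 in GFP cells. Over all tested genes it was 0.02 and -0.02. Heparanase, Hpse, the enzyme that cuts within the chain, had 1.78, 1.61, 2.16 and 0.768 CPM in GFP cells with TGF-beta, against 20.0, 17.5, 15.1 and 12.2 CPM in GFP cells. On the log2 scale it fell by 3.33 (adjusted p = 5.99e-07) in Cre cells and by 3.37 (SE 0.27, adjusted p = 6.64e-07) in GFP cells. The lysosomal sulfatase Arsg fell by 1.72 (adjusted p = 0.000431) in Cre cells and by 1.79 (SE 0.29, adjusted p = 0.000329) in GFP cells. Hgsnat and Sgsh, both lysosomal enzymes of heparan sulfate breakdown, fell in GFP cells by 0.56 and 0.79 (adjusted p = 0.0246 and 0.0259). The summed macrophage markers given above were lower in the same comparison. In GFP cells the median log2 fold change of the 10 was -1.03, and Mrc1, which fell most, was at -3.28. The part of these markers in the fall of these lysosomal genes was not tested.

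Proteins that carry heparan sulfate were split. Of 15 tested, 2 rose, 7 fell and 6 were uncalled in Cre cells, and 2 rose, 6 fell and 7 were uncalled in GFP cells. Of all genes 14% rose and 16.3% fell in Cre cells, and 13.8% rose and 15.3% fell in GFP cells. With the block 2 of the 15 rose and 9 fell in Cre cells, beside 52.5% of all genes called in either direction. In GFP cells 2 rose and 7 fell with it, beside 49.1%. In Cre cells without the block Tgfbr3 and Col18a1 stood at -2.79 and -2.16 (log2 fold change, adjusted p = 1.06e-06 and 1.39e-05). Tgfbr3, the betaglycan that binds TGF-beta, fell by 2.79 (SE 0.24, adjusted p = 1.14e-06) and Col18a1, a basement membrane collagen, by 2.15 (SE 0.25, adjusted p = 1.48e-05) in GFP cells. Sdc4, a syndecan of focal adhesions, fell by 1.31 (SE 0.20, adjusted p = 0.000163), to 85.2 ± 19.9 CPM in GFP cells with TGF-beta, against 211 ± 40.1 CPM in GFP cells. The cell-surface glypican Gpc1 rose by 0.93 ± 0.12 (adjusted p = 3.74e-05), with 140.3 ± 11.2 CPM in GFP cells with TGF-beta and 73.5 ± 12.1 CPM in GFP cells.

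**Figure D4:**
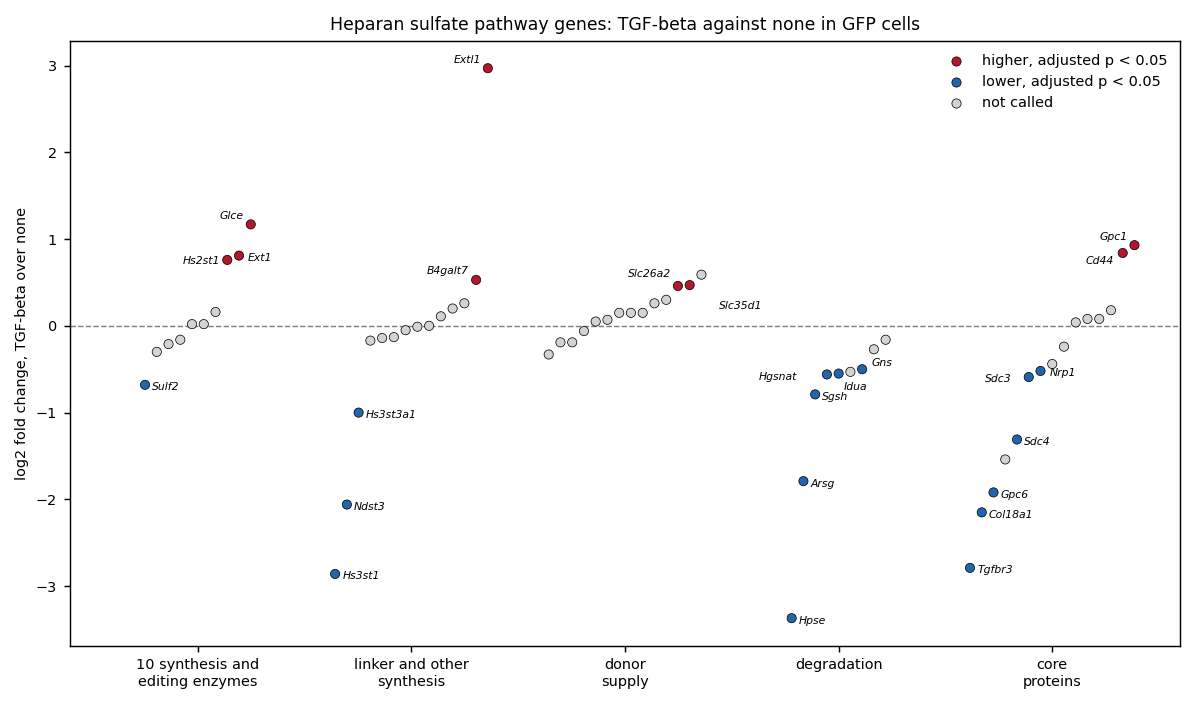
Log2 fold change with TGF-beta over none in GFP cells for each tested gene of the 10 enzymes and of the 4 further lists, 1 point a gene, sorted within its list. Red points were called higher and blue points lower at an adjusted p below 0.05; every point of the degradation list lies below 0.

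Cre virus was compared with GFP virus, the Cre groups being labelled as Has2 knockouts. No group had Cre virus in cells without floxed Has2, per the protocol. Effects of Has2 loss and of the Cre virus itself therefore cannot be told apart. None of the 10 genes was called with TGF-beta or without it, and 0% of all 15285 genes was called in either comparison (edgeR quasi-likelihood test; 268 genes with TGF-beta and 169 without had an unadjusted p below 0.05, none of the 10 among them; DESeq2 called 0 and 3 genes). With the block, 0.0654% and 0.17% of genes were called (10 and 26), again none of the 10. Their adjusted p was then 0.315 or more. Before adjustment, 4 of the 10 had a p below 0.05 in the blocked fit with TGF-beta, where 13.3% of all genes did, and 1 of the 10 without it, where 5.77% did. With TGF-beta these were Ndst1 at -0.20 (unadjusted p = 0.0205), Sulf1 at -0.25 (0.0361), Hs6st1 at -0.23 (0.0385) and Extl3 at -0.21 (0.0467), and without it Ndst1 at -0.18 (0.0374).

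Small shifts ran mostly one way. With TGF-beta, 9 of the 10 genes had a log2 fold change below 0 for Cre over GFP, with a median of -0.16, and without TGF-beta 10 of 10 had one, with a median of -0.10, although Ext2 turned to 0.003 when genes with few reads were kept in the scaling. Over all genes the medians were 0 and -0.01, and 51% and 52% were below 0. The widest intervals were those of Hs6st2 with TGF-beta, 0.36 (95% interval -0.16 to 0.87), and of the same gene without, -0.11 (-0.62 to 0.40). For Sulf1 the differences were -0.21 (-0.71 to 0.29) with TGF-beta and -0.10 (-0.60 to 0.40) without. For Sulf2 they were -0.16 (-0.58 to 0.26) and -0.08 (-0.50 to 0.34), for Ext1 -0.13 (-0.48 to 0.22) and -0.04 (-0.38 to 0.31), and for Glce -0.13 (-0.53 to 0.28) and -0.10 (-0.51 to 0.31). These intervals are from the fit without the block, and those with it were narrower. With the block they ran from -0.48 to -0.02 for Sulf1 with TGF-beta and from -0.34 to 0.12 without. For Sulf2 they ran from -0.36 to 0.03 and from -0.27 to 0.11. In the fit without the block, Hs6st1 came closest to the threshold of an unadjusted test with TGF-beta, at -0.23 (-0.48 to 0.03, unadjusted p = 0.0788).

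The 10 genes are long, with 5542 to 11294 exonic bases, and all lie above the median of 4070 bases over 15259 tested genes with a length. Across those genes, which are not independent, the Cre minus GFP difference ran against exon length, with a Spearman rho of -0.277 with TGF-beta and -0.383 without. For TGF-beta against none the rho was -0.10 in Cre cells and -0.107 in GFP cells. Interferon-response genes stood higher in Cre cells: the sum of 12 of them was 261 to 647 CPM in Cre cells with TGF-beta, against 155 to 424 CPM in GFP cells with TGF-beta, and 1183 to 2057 CPM in Cre cells, against 494 to 1108 CPM in GFP cells. All 12 had a log2 fold change above 0 for Cre over GFP in both media, where 51% of all genes with TGF-beta and 52% without lay below 0. None was called without the block. With it, 9 of the 12 were called higher without TGF-beta, beside 0.17% of all genes called in either direction. None was called with TGF-beta, beside 0.0654% of all genes. The part of gene length or of these genes in the small shifts was not tested.

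**Figure D5:**
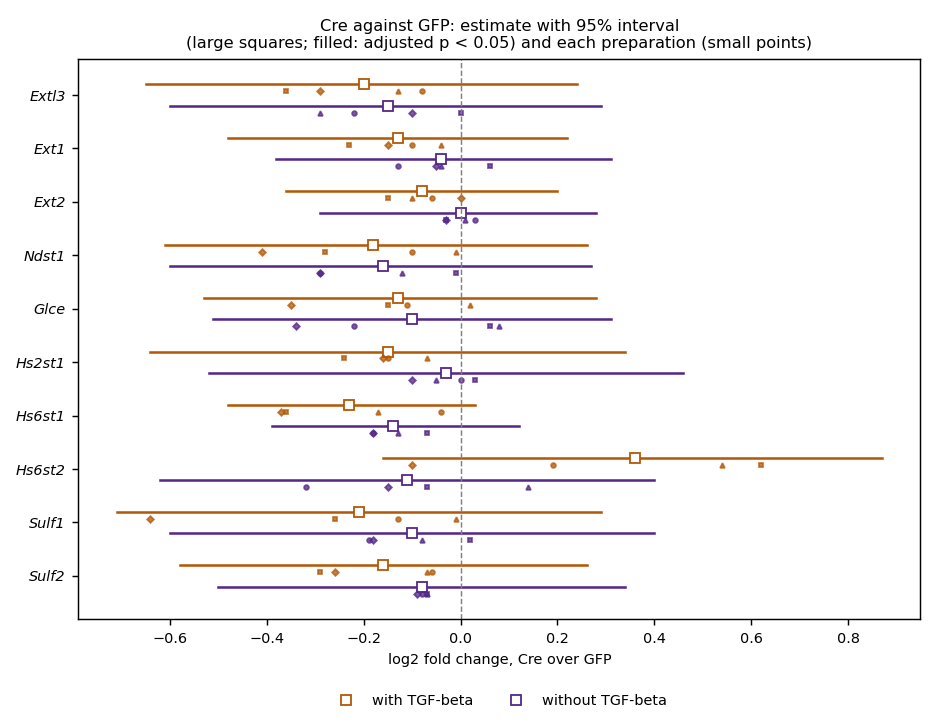
Log2 fold change of Cre over GFP cells for the 10 genes, with TGF-beta and without it. The 95% intervals come from the edgeR fit without the block, and small points are the 4 preparations. All 20 intervals include 0, and 19 of the 20 estimates lie at or below 0, Hs6st2 with TGF-beta being the exception.

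The response to TGF-beta was then compared between Cre and GFP cells by the interaction of virus and TGF-beta. No gene was called, 0% of all tested genes, with or without the block (90 genes without it and 501 with it had an unadjusted p below 0.05, none of the 10 among them). For Glce the difference of the responses was -0.02 (95% interval -0.60 to 0.55), for Ext1 -0.10 (-0.59 to 0.40), for Hs2st1 -0.13 (-0.82 to 0.57) and for Sulf2 -0.08 (-0.68 to 0.51). These intervals are from the fit without the block, and those with it were narrower. With the block they were -0.49 to 0.45 for Glce and -0.47 to 0.28 for Ext1. For Hs2st1 and Sulf2 they were then -0.50 to 0.25 and -0.36 to 0.18. Hs6st2 had the largest difference of responses, 0.47 ± 0.34 without the block (-0.26 to 1.20), above 0 in 4 of 4 preparations with 0.51, 0.69, 0.40 and 0.04. Without preparation 4 and with the block, Hs6st2 was higher in Cre than in GFP cells with TGF-beta by 0.46 (adjusted p = 0.0412), while the difference of responses was 0.56 (adjusted p = 0.267). Without preparation 4 and without the block the Cre difference with TGF-beta was 0.45 and not called (adjusted p = 0.923), and no other of the 31 alternatives called it.

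Likeness of pattern was measured for 4 of the genes as the root mean square difference of log2 CPM, each gene centred on its own mean, over the 16 libraries. Nearest to Sulf1 were Nedd4 at 0.063, Atl3 at 0.0635 and Myo10 at 0.0813, where the SD of Sulf1 itself was 0.361. Nearest to Sulf2 (SD 0.468) were Stat3 at 0.0815, Tvp23a at 0.0909 and Inpp5e at 0.0961. Ext1 (SD 0.429) was followed by Tmtc4 at 0.0967, Mdfic at 0.113 and Map6 at 0.114, and Ndst1 (SD 0.290) by March6 at 0.0807, Atxn1l at 0.0829 and Ankhd1 at 0.0859. The 16 libraries share preparations and treatments, so such nearness describes these libraries and is given with no test.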

How the data were processed

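The deposited table holds raw read counts per gene, which the authors made with HTSeq 0.10.0 after FastQC 0.10.1, per the submitters' processing notes. The notes name builds mm39 and GRCm39. No source used here names the aligner, the annotation or the strand setting. Per the labels' protocols, Trizol RNA was treated with DNase and NEBNext Ultra II libraries were made. A Has2 overexpression virus of the protocol was not analysed here.

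Counts were tested with edgeR 4.0.16 (R 4.3.3): TMM scaling (factors 0.908 to 1.12), filterByExpr with a count minimum of 10 and a total of 15 (15285 genes tested, 40129 not, 99.9% of counts kept), 1 mean per group over all 16 libraries, and robust quasi-likelihood F tests with Benjamini-Hochberg adjustment over all tested genes at 0.05. SE were derived from the F statistic, and SE and intervals are those of the fit without the block unless stated. Symbols were matched to 52081 of the 55414 identifiers. Exon lengths came from a GRCm38 annotation, used only for lengths and for checking the promoter starts. Log2 CPM for likeness had a prior count of 2. DESeq2 1.42.0 was an alternative. The scripts were tested on simulated data.

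Same-numbered libraries share a preparation code in their names. Over 24 same-numbered pairs the deviations from the group means correlated with r of 0.323 to 0.838. Over 72 pairs with other numbers the median r was -0.13 and the highest 0.292. The numbers therefore pair the libraries, and the preparation was a block in an alternative fit. No 2 libraries of the same group were alike within sampling noise, and pairs from different groups were not checked for this. The 10 genes were given by name. From each further list, up to 4 called genes with the smallest adjusted p in GFP cells, and up to 2 in Cre cells, are named. The members and lists were chosen with earlier results of these data known, so they get counts beside those of all genes and no test of their own. Leaving out a whole preparation without the block was added after seeing the data.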

Additional observations from a re-analysis of the deposited data

Results flagged for a closer look

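Of 40 sets of 4 libraries (10 genes in 4 groups), 8 held a library whose gap to its nearest neighbour was above Dixon's 95% limit for 4 values, as a share of the set's range. Chance flags about 1 in 20 sets, and the sets are not independent.

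Preparation 4 was the library set apart in 6 of them, each time as the lowest. In Cre cells with TGF-beta it had 173 CPM of Ext2, where the nearest library had 217, and 98 CPM of Sulf2, where the nearest had 172. In GFP cells with TGF-beta it had 172 CPM of Ext2 (nearest 231), 126 CPM of Extl3 (nearest 211), 69.7 CPM of Hs2st1 (nearest 132) and 836 CPM of Sulf1 (nearest 1247). All 6 were in groups with TGF-beta. In GFP cells with TGF-beta, preparation 3 was highest for Hs6st1 at 41.9 CPM, with the nearest at 37.1. In Cre cells without TGF-beta, preparation 2 was lowest for Hs6st2 at 68.9 CPM, with the nearest at 93.4. What sets these libraries apart was not tested.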

How the results depend on the processing

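The rises of Glce, Ext1 and Hs2st1 and the fall of Sulf2 with TGF-beta kept their direction under all 31 alternatives run. Both calls of Glce and that of Ext1 in GFP cells also held under all of them (Glce adjusted p up to 0.0154 in Cre cells and 0.0118 in GFP cells, Ext1 up to 0.0341 in GFP cells). The alternatives were DESeq2, its size factors in edgeR, no filter, the replicate block, a term for sex, a filter of 5 CPM in 4 libraries, a fit of the compared groups alone, and leaving out libraries or whole preparations. Calls on Hs2st1 were the least firm in fits without the block, and held in every fit with it. In Cre cells its call held only without GFP replicate 4, GFP with TGF-beta replicate 1, GFP with TGF-beta replicate 4 or Cre with TGF-beta replicate 4 among the 16 libraries, and was lost with no filter and with the compared groups alone (adjusted p = 0.0817 and 0.065). In GFP cells it was lost without GFP replicate 1 (0.74), GFP replicate 4 (0.68), GFP with TGF-beta replicate 1 (0.69) and GFP with TGF-beta replicate 3 (0.71). In both it was also lost, in the fit without the block, on leaving out preparation 1, 2 or 3 in every group (adjusted p from 0.102 to 0.26).

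With the replicate block, genes called numbered 10 for Cre against GFP with TGF-beta and 26 without, 8030 for TGF-beta in Cre cells and 7498 in GFP cells; beside the calls named in the report, it changed none for the 10 genes. DESeq2 called 3 genes for Cre against GFP without TGF-beta. With the block and without preparation 1, 3 or 4, 9, 3 or 231 genes were called for Cre against GFP with TGF-beta, 1 of the 10 (Hs6st2) in the last. Without preparation 4, 115 genes were called for Cre against GFP without TGF-beta with the block and 17 without it. For TGF-beta, leaving out preparation 1, 2 or 3 without the block gave 2289, 2878 or 2880 genes in Cre cells with 1, 2 and 2 of the 10, and 2277, 2828 or 2742 in GFP cells with 2 of the 10 each time. With the block and without preparation 4 the counts were 8566 in Cre cells and 8033 in GFP cells. Leaving out 1 library gave 3472 to 4877 genes in Cre cells and 3364 to 5178 in GFP cells, with 3 to 4 of the 10 in each. The cause of these shifts was not tested.

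Values near 0 turned sign under some settings, none of them called. With no filter, Ext2 was 0.003 for Cre against GFP without TGF-beta. With the filter of 5 CPM, TGF-beta gave -0.006 for Ndst1 in Cre cells, and -0.01 for Ext2 and -0.005 for Ndst1 in GFP cells. Without preparation 1, with the block and then without it, Ext1 was 0 and 0.002 for Cre against GFP without TGF-beta, and TGF-beta in Cre cells gave -0.075 and -0.068 for Ndst1 and -0.023 and -0.022 for Hs6st1. Without preparation 2, in the same order, Ext2 was 0.008 and 0.009 for Cre against GFP without TGF-beta, and the difference of responses was 0.027 and 0.056 for Extl3, 0.05 and 0.07 for Ndst1 and 0.021 and 0.018 for Glce; Ndst1 was -0.004 for TGF-beta in GFP cells without the block, and Hs6st2 -0.048 in Cre cells with it. Without preparation 4, Ext2 was 0.001 in both for Cre against GFP without TGF-beta, and the difference of responses of Ndst1 was 0.015 and 0.02.

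Leaving out 1 library, Cre against GFP with TGF-beta ran from -0.268 to 0.011 for Ext1, -0.184 to 0.002 for Ext2, -0.34 to 0.036 for Hs2st1, -0.244 to 0.034 for Glce, -0.342 to 0.002 for Sulf1 and -0.311 to 0.008 for Sulf2. Without TGF-beta it ran from -0.072 to 0.014 for Ext1, -0.074 to 0.072 for Ext2, -0.097 to 0.06 for Hs2st1, -0.219 to 0.006 for Hs6st2, -0.198 to 0.014 for Sulf1 and -0.155 to 0.005 for Sulf2. TGF-beta ran from -0.125 to 0.021 for Ext2, -0.139 to 0.156 for Ndst1 and -0.006 to 0.157 for Hs6st1 in Cre cells, and from -0.064 to 0.119 for Ext2 and -0.085 to 0.165 for Ndst1 in GFP cells. The difference of responses ran from -0.233 to 0.046 for Ext1, -0.181 to 0.016 for Ext2, -0.21 to 0.12 for Extl3, -0.159 to 0.136 for Ndst1, -0.314 to 0.062 for Hs2st1, -0.161 to 0.002 for Hs6st1, -0.143 to 0.135 for Glce, -0.242 to 0.102 for Sulf1 and -0.235 to 0.085 for Sulf2.

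Each Cre difference has a precision no finer than its 95% interval, which was narrower with the block: for Ext2 without TGF-beta it ran from -0.29 to 0.28 without the block and from -0.13 to 0.12 with it.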
